A study of Homo sapiens with 36 samples.

Results

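The genes described here are the receptors, kinases and feedback inhibitors of the interleukin-6 (IL-6) family pathway, in human breast cell lines depleted of YAP, TAZ, TEAD, STAT3 or JUNB. They were taken by name as a list of 10 genes out of the 60725 Ensembl genes in the RNA-seq tables, and every one was present in the tables. The list holds 4 receptor chains (IL6R, IL6ST, LIFR and OSMR), 3 Janus kinases (JAK1, JAK2 and TYK2) and 3 genes known as STAT targets (SOCS3, SOCS2 and PIM1). On GRCh38, IL6R (chr1:154405193-154469450) and OSMR (chr5:38845858-38945596) lie on the plus strand, as do JAK2 (chr9:4984390-5129948), SOCS2 (chr12:93569814-93583487) and PIM1 (chr6:37170152-37175428). IL6ST (chr5:55935095-55995022), LIFR (chr5:38474668-38608354), JAK1 (chr1:64833223-65067754), TYK2 (chr19:10350533-10380608) and SOCS3 (chr17:78356778-78360077) lie on the minus strand.

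RNA was sequenced in 36 libraries, which fall into 18 groups of 2. MCF-10A ER-Src cells are non-transformed breast epithelial cells that carry a fusion of v-Src with the estrogen receptor's ligand-binding part, which tamoxifen (TAM) switches on. All 20 ER-Src libraries come from this line, and each received a control siRNA (Ctrli) or an siRNA against YAP (YAPi), TAZ (TAZi), STAT3 (STAT3i) or JUNB (JUNBi), followed by TAM or by ethanol (ETH), the vehicle. MDA-MB-231, a triple-negative breast cancer line, was studied in a first set (Ctrli, YAPi, TAZi, YAPi_TAZi and TEADi, 10 libraries) and a second set (Ctrli, JUNBi and STAT3i, 6 libraries) with controls of its own. The siRNAs were pools of several oligonucleotides for each target, and no second, independent pool is named. The labels list AZD0530 beside tamoxifen as an inducing agent. AZD0530 is known as an inhibitor of Src-family kinases, and which libraries received it, and whether TAM lasted 2 or 24 hours, is not given in the sources used here. The labels of the MDA-MB-231 libraries repeat the ER-Src culture and induction text, whereas the methods of the study describe plain culture medium for these cells. Nothing states that the replicates of a group came from separate cultures, so the p-values measure the spread between these libraries, which may be technical.

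IL-6 family cytokines bind a ligand-specific chain (IL6R for IL-6, LIFR for leukemia inhibitory factor, OSMR for oncostatin M) that acts together with a shared chain, gp130, the product of IL6ST. The receptors have no enzymatic activity of their own. JAK1, JAK2 and TYK2 are bound to the cytoplasmic tail of gp130 and phosphorylate STAT3, which then enters the nucleus and activates genes that include SOCS3, an inhibitor that binds gp130 and the kinases and closes a negative feedback loop. SOCS2 is a related inhibitor best known for limiting growth hormone signalling through STAT5, and PIM1 encodes a serine/threonine kinase induced by cytokines.

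The sequence after the start sites of OSMR and IL6R is shown because these receptors hold the only AP-1 matches in the promoter windows searched. RefSeq promoter windows from 250 bases before to 50 bases after a start (GRCh38.p14) were available for 9 of the 10 genes, SOCS2 being the exception, and the windows of SOCS3 do not cover the start of the gene in the annotation. There were 17 windows because several genes have more than 1 start. With both strands searched, 2 of the 17 windows held the STAT motif TTCNNNGAA (both of LIFR), 2 held the AP-1 motif TGANTCA (IL6R and OSMR) and 4 held the TEAD motif GGAATG (1 of JAK1, 1 of LIFR and 2 of SOCS3). Over all 35116 windows in the table, 7.66% held the STAT motif, 7.71% the AP-1 motif and 14.0% the TEAD motif. The AP-1 matches of OSMR and IL6R, a receptor raised by TAM and one raised by YAPi, lie just after the start and are shown in capitals within 30 bases.
OSMR, chr5:38846004-38846033, plus strand: tgccccgcagcTGATTCAtagccccggccc
IL6R, chr1:154405363-154405392, plus strand: aggaccgtccgccgctcTGAGTCAtgtgcg
These are matches of letters and not measured binding sites.

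Depth and the share of a few named RNAs without a poly(A) tail differed between the sets and within set 1. The expected counts, which are read numbers per gene estimated by RSEM, summed to 6419720 to 19161700 in the ER-Src libraries, to 13456784 and 13534560 in the controls of set 1, to only 1411304 to 2784605 in the 8 knockdown libraries of set 1, and to 7290499 to 18076158 in set 2. RNAs that carry no poly(A) tail took 9.43% to 11.7% of all counts in ER-Src, 8.71% to 11.8% among the knockdowns of set 1, but 0.00278% to 0.00407% in the controls of set 1 and at most 0.0112% in set 2. The gap in this share is called a difference in library type below. It is inferred from the counts, as no label states a library type. The study's methods name the TruSeq Ribo Profile Mammalian kit for RNA-seq, with no other kit. In set 1 a knockdown cannot be told apart from this difference. Of 14 tests of a single targeted gene in its own knockdown, 12 passed an adjusted p of 0.01, with log2 fold changes from -4.90 to -1.16 over the 14. The exceptions were JUNB in ETH (-1.16, adjusted p = 0.0643) and STAT3 in set 2 (-2.41, DESeq2 unadjusted p = 8.36e-14, no adjusted p assigned, and 3.16e-05 adjusted by edgeR). TEAD1 to TEAD4 were all lower in TEADi. The basal keratin KRT5 had 1802 TPM in ER-Src controls under ETH and 0 in MDA-MB-231, where vimentin stood at 2557 TPM in set 1 and 1001 TPM in set 2. The leukocyte genes PTPRC and CD3E were at 0 in all control groups, CD14 was between 3.41 and 7.98 TPM, and the fibroblast gene DCN was at 59.4 and 65.8 TPM in ER-Src and at 0 in MDA-MB-231.

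The level of each gene is given first in TPM, the share of a library's transcripts after division by gene length, which can be set side by side between genes. In untreated ER-Src controls (Ctrli in ETH), IL6ST (27.02 and 20.93 TPM) and TYK2 (23.97 and 20.86 TPM) were the most abundant of the 10 and overlapped each other. JAK1 followed with 15.1 and 12.45 TPM. SOCS2, OSMR and IL6R came next, with group means of 6.98, 5.36 and 2.63 TPM, each above the next without overlap. PIM1 (1.75 and 1.82 TPM) and LIFR (1.5 and 1.97 TPM) overlapped. SOCS3 (0.92 and 1.00 TPM) and JAK2 (0.78 and 1.13 TPM) were lowest. The shared chain and 2 of the 3 kinases thus stood above the ligand-specific chains and the STAT target genes.

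In the MDA-MB-231 controls the order differed, and so did the ligands. OSMR had 43.9 and 46.06 TPM in set 1 and 5.02 and 5.61 TPM in set 2. PIM1 had 31.96 and 32.18 TPM in set 1 and 6.12 and 8.31 TPM in set 2. IL6R was low in set 1 (0.92 and 1.29 TPM) and was listed at 0 in both controls of set 2. The ligands IL6, IL11 and LIF had mean levels of 77.5, 82.3 and 45.1 TPM in the set 1 controls and of 21.8, 34.5 and 17.1 TPM in those of set 2, against at most 0.115, 0.07 and 1.52 TPM in the ER-Src controls. OSM, the ligand of OSMR, was at 0 in every control group. The controls of one line did not overlap between the sets for any of the 10 genes. For IL6ST the means were 54.95 TPM in set 1 and 3.42 TPM in set 2. Levels set side by side between sets are therefore a description only. TYK2, the kinase first known from interferon signalling, stood highest of the 10 in MDA-MB-231 (139.9 to 146.7 TPM in set 1 and 164.2 to 212.5 TPM in set 2). Its deposited effective length was 486 to 650 bases in set 2 and 1283 to 1338 bases in the controls of set 1, against 1543 to 2092 bases in ER-Src. For IL6ST the order was the other way round, with 7738 to 8879 bases in set 2, 8261 to 8496 bases in the controls of set 1 and 3308 to 4440 bases in ER-Src. A shorter effective length raises TPM at the same count, and its part in the TYK2 level was not tested.

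**Figure D1:**
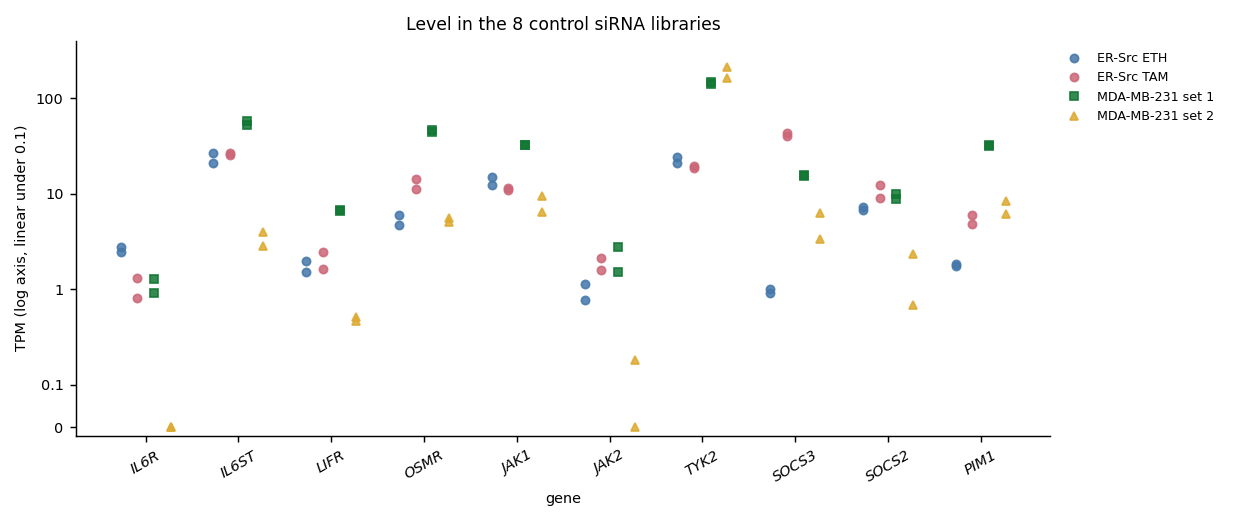
TPM of the 10 genes in the 8 control siRNA libraries, 2 for each of ER-Src in ETH, ER-Src in TAM, MDA-MB-231 set 1 and MDA-MB-231 set 2 (log axis, linear under 0.1; each point is 1 library). SOCS3 moves from 0.92 and 1.00 TPM in ETH to 43.15 and 40.18 TPM in TAM, and IL6R lies at 0 in both controls of set 2.

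Activation of v-Src in control cells was the first comparison (TAM against ETH in Ctrli), and it raised SOCS3, PIM1 and the oncostatin M receptor. SOCS3 had 0.92 and 1.00 TPM in ETH and 43.15 and 40.18 TPM in TAM. The groups lie far apart, and the log2 fold change of the normalized counts was 5.77 ± 0.18 (SE, DESeq2, adjusted p = 1.37e-235), a 54.5-fold rise. SOCS3 thereby went from the lower end of the 10 genes to the first place in TAM. PIM1 had 1.75 and 1.82 TPM in ETH against 6.04 and 4.79 TPM in TAM (log2 fold change 1.96 ± 0.26, adjusted p = 1.97e-12). OSMR had 6.03 and 4.68 TPM in ETH against 14.2 and 11.27 TPM in TAM (1.51 ± 0.15, adjusted p = 1.17e-20). For both genes the lower TAM library was above the higher ETH library. IL6ST, the partner chain, had 1766 and 1590 normalized counts in ETH and 2255 and 2356 in TAM, which passed at 0.46 ± 0.11 (adjusted p = 0.00094). Its TPM overlapped between ETH (27.02 and 20.93) and TAM (26.9 and 25.22), and the call was lost when any 1 of the 4 libraries was left out or when the effective lengths entered the fit. Over these fits the log2 fold change ran from 0.37 to 0.53 and the adjusted p reached 0.349.

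In all, 4 of the 10 genes were called, all of them higher in TAM, where 4.56% of the genes with an adjusted p were called higher and 6.11% in either direction. The median log2 fold change of the 10 was 0.60, beside -0.01 over the 15934 genes with an adjusted p. These are bulk measurements, in which more cells with a transcript and more transcript per cell cannot be told apart. JAK2 had 79.7 and 110.4 normalized counts in ETH and 182.7 and 189.0 in TAM, without overlap, and did not pass (0.97 ± 0.31, adjusted p = 0.0216 by DESeq2 and 0.008 by edgeR). JAK1 and TYK2 differed by 0.02 ± 0.13 and 0.03 ± 0.14, with 95% intervals of the log2 fold change of -0.23 to 0.27 and -0.24 to 0.30. In TPM both were lower in TAM without overlap. JAK1 had 10.92 to 11.38 TPM against 12.45 to 15.14 in ETH, and TYK2 18.46 to 19.33 against 20.86 to 23.97. LIFR (0.57 ± 0.23), SOCS2 (0.63 ± 0.24) and IL6R (-0.56 ± 0.34) did not pass either, although the normalized counts of none of the 3 overlapped between the groups (the TPM of LIFR did). STAT3 itself, the factor that the kinases act on, rose from 18.7 and 22.9 TPM to 33.8 and 44.15 TPM (1.12 ± 0.11, adjusted p = 2.13e-21).

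**Figure D2:**
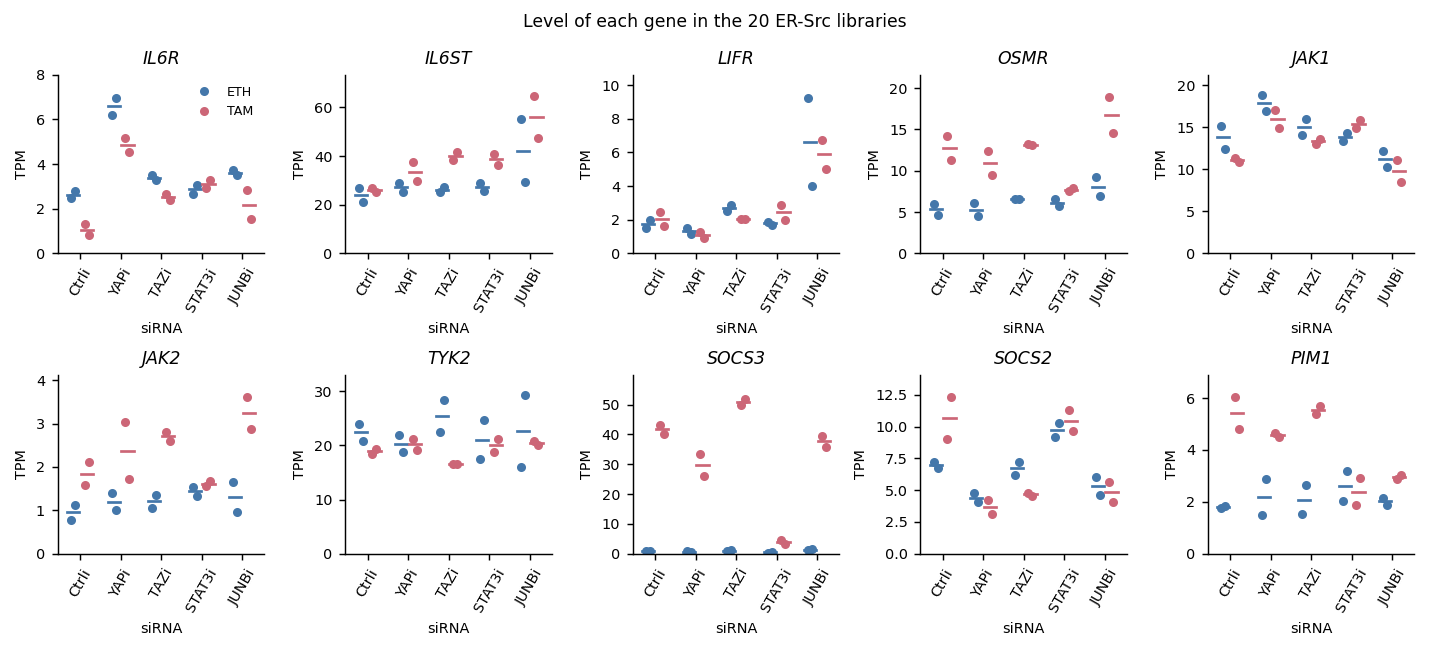
TPM of each of the 10 genes in the 20 ER-Src libraries, by siRNA, with ETH in blue and TAM in red (points are libraries, bars the mean of 2). SOCS3, OSMR and PIM1 rise with TAM in Ctrli, and in STAT3i the SOCS3 level in TAM falls to 3.26 and 4.43 TPM.

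The other genes of the pathway, a list of 51 ligands, receptors, STATs, inhibitors, PIM kinases and known STAT3 response genes, moved in the same comparison mainly through the response genes. Of the 14 response genes 12 rose and none fell, with a median log2 fold change of 1.72, and the largest changes were in FOS (2.55), JUNB (2.51), BCL3 (2.09) and SBNO2 (2.08). Of the other inhibitors, 13 of 14 had an adjusted p and 3 rose, namely the SOCS-box protein CISH (2.64 ± 0.50) and the phosphatases PTPN2 (0.93) and PTPN1 (0.49), which are known to act on JAKs and STATs. None of the 3 ligands and none of the 4 other receptor genes with an adjusted p passed.

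Each knockdown was then compared with Ctrli under the same treatment, which asks which of these genes depend on each factor with v-Src active or not. The 4 comparisons within TAM share the same pair of Ctrli libraries, as do the 4 within ETH. The difference between gene length and effective length was 49.0 bases in every STAT3i and JUNBi library and 49.5 in every Ctrli, YAPi and TAZi library, a difference that cannot be told apart from the siRNA and whose part in the results was not tested. In STAT3i cells under TAM, 3 of the 10 genes were called, all lower, beside 4.80% of the genes tested called lower and 8.09% called in either direction. They were SOCS3, PIM1 and OSMR. The median of the 10 was -0.30, beside 0.03 over all genes tested.

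SOCS3 had 4.43 and 3.26 TPM in STAT3i under TAM against 43.15 and 40.18 TPM in Ctrli (log2 fold change -3.74 ± 0.16, adjusted p = 1.5e-119), a 13.3-fold lower level that was still above the 1.00 TPM of the higher untreated control. PIM1 had 1.88 and 2.90 TPM against 6.04 and 4.79 TPM (-1.77 ± 0.26, adjusted p = 3.07e-10). OSMR had 7.56 and 7.86 TPM against 14.2 and 11.27 TPM (-1.03 ± 0.15, adjusted p = 5.35e-10). None of the 3 overlapped between the groups, and all 3 kept the call in every alternative fit and with any 1 library left out. The other 7 did not pass, and IL6ST and LIFR, the remaining chains of the oncostatin M and leukemia inhibitory factor receptors, differed by 0.13 ± 0.13 and -0.05 ± 0.22, with 95% intervals of -0.12 to 0.38 and -0.49 to 0.39. In TPM, unlike the fitted counts, IL6ST in STAT3i lay above both controls, at 36.32 to 40.99 against 25.22 to 26.9.

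In the same comparison 10 of the 14 response genes fell and none rose (median -1.57), with FOS at -3.48, BCL3 at -2.41, JUNB at -2.41 and SBNO2 at -2.12. CISH fell as well (-1.66 ± 0.43, adjusted p = 0.0017), from 130.9 and 92.0 normalized counts to 33.5 and 37.6. One receptor gene of the list rose, IL31RA, which pairs with OSMR in the receptor for interleukin-31 (2.12 ± 0.52, adjusted p = 0.000989), from 18.5 and 21.2 normalized counts to 93.0 and 78.3.

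In ETH, STAT3i called none of the 10 genes with DESeq2, none with edgeR and none at an unadjusted p of 0.05 with DESeq2 (1 with edgeR), beside 0.201% of all genes tested. SOCS3 had 0.39 and 0.60 TPM against 0.92 and 1.00 TPM, without overlap, at -1.02 ± 0.54 (adjusted p = 1.0). The 25.98 and 37.98 normalized counts behind it limit the precision, and the 95% interval ran from -2.09 to 0.04.

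Whether the effect of STAT3i differed between TAM and ETH was tested by the interaction term. It called 3 of the 10 genes, all with a negative term, beside 1.40% of all genes tested (0.951% negative), namely SOCS3 (-2.73 ± 0.34, adjusted p = 3e-13), PIM1 (-2.04 ± 0.40, adjusted p = 5.01e-05) and OSMR (-0.98 ± 0.23, adjusted p = 0.00214). In ETH the effect of STAT3i was -1.02 ± 0.54 for SOCS3, 0.26 ± 0.37 for PIM1 and -0.06 ± 0.20 for OSMR, none of which passed. STAT3 itself changed by -2.66 ± 0.14 in STAT3i under TAM and by -1.88 ± 0.17 under ETH. The part of this unequal depletion in the interaction term was not tested. On the scale of group mean TPM, TAM multiplied SOCS3 43.4-fold in Ctrli and 7.77-fold in STAT3i, OSMR 2.38-fold and 1.26-fold, and PIM1 3.03-fold and 0.919-fold. The OSMR term did not pass with edgeR (adjusted p = 0.0432) or without either STAT3i library in TAM, the first Ctrli library in TAM or the second Ctrli library in ETH, each left out alone, where the value lay between -1.18 and -0.84 and the adjusted p reached 0.104. The same term of YAPi, TAZi and JUNBi called none of the 10 with DESeq2 or edgeR, beside 0.496%, 1.64% and 0.287% of all genes, and at an unadjusted p of 0.05 DESeq2 gave 1, 1 and 2 genes and edgeR 2, 3 and 3. In the TAZi term DESeq2 assigned an adjusted p to only 5 of the 10. PIM1 came closest in JUNBi (-1.35 ± 0.41, unadjusted p = 0.000891, adjusted p = 0.121).

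**Figure D3:**
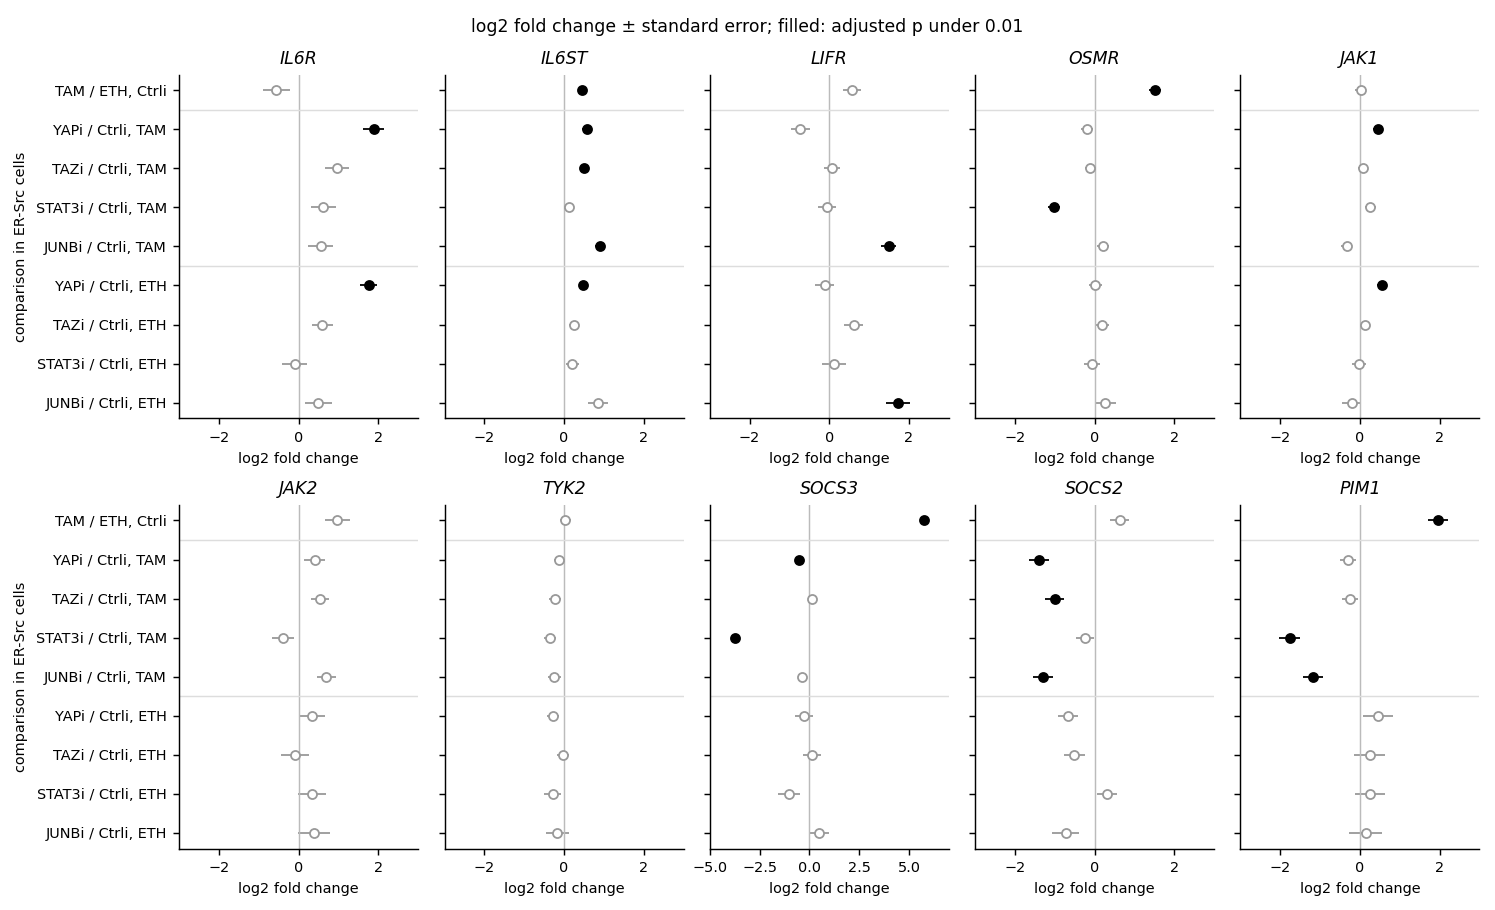
log2 fold change with its standard error for each gene in the 9 pairwise ER-Src comparisons (filled points passed an adjusted p of 0.01; the SOCS3 panel has a wider axis). STAT3i in TAM lowers SOCS3, PIM1 and OSMR, YAPi raises IL6R, IL6ST and JAK1 under both treatments, and JUNBi raises LIFR under both. The IL6ST and JAK1 calls in YAPi and the LIFR call in JUNBi under ETH were lost in some of the alternative or left-out fits.

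Depletion of YAP moved other members, chiefly the ligand-binding chain for IL-6. IL6R had 5.18 and 4.56 TPM in YAPi under TAM against 1.31 and 0.80 TPM in Ctrli (1.88 ± 0.26, adjusted p = 2.56e-11), and 6.21 and 6.97 TPM against 2.46 and 2.79 TPM in ETH (1.75 ± 0.21, adjusted p = 1.56e-14). Every YAPi library was above every Ctrli library of its treatment, and the call held in all fits. In TPM under TAM, IL6R also lay above both controls in TAZi (2.4 to 2.65), STAT3i (2.92 to 3.27) and JUNBi (1.54 to 2.82). None of these passed in the fitted counts. In YAPi, IL6ST rose by 0.56 ± 0.11 in TAM (3932 and 3632 normalized counts against 2498 and 2617) and by 0.48 ± 0.12 in ETH (3405 and 3140 against 2468 and 2216). JAK1 rose by 0.46 ± 0.13 in TAM and by 0.54 ± 0.12 in ETH, with 17.11 and 14.9 TPM in YAPi against 11.38 and 10.92 TPM in Ctrli under TAM. The small IL6ST and JAK1 changes were less stable. All 4 calls were lost without either Ctrli library or the first YAPi library of that treatment. The JAK1 call in TAM was also lost without the second YAPi library, with edgeR and with the replicate block. The IL6ST call in TAM was lost with effective length offsets. The IL6ST call in ETH was lost with these offsets, with edgeR and with 1 fit over all groups. Over these fits IL6ST lay between 0.33 and 0.63 and JAK1 between 0.45 and 0.58.

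Among the feedback genes, SOCS3 was lower in YAPi under TAM, with 33.3 and 26.2 TPM against 43.15 and 40.18 TPM (-0.51 ± 0.12, adjusted p = 0.000383), a call that 4 of 6 other fits, edgeR among them (adjusted p = 0.013), did not make. It was also lost without either Ctrli library or the second YAPi library, with values of -0.60 to -0.40. SOCS2 had 4.21 and 3.16 TPM against 9.02 and 12.34 TPM (-1.39 ± 0.25, adjusted p = 6.52e-07), and lost the call without the second library of either group (values of -1.56 to -1.18, adjusted p up to 0.034). In ETH, SOCS2 (-0.66 ± 0.25, adjusted p = 0.0485) and SOCS3 (-0.29 ± 0.45, adjusted p = 0.769) did not pass. YAPi thus called 5 of the 10 genes in TAM, 3 higher and 2 lower, beside 10.9% of all genes tested (5.40% higher and 5.54% lower), and 3 in ETH, all higher, beside 11.4% called in either direction and 5.03% called higher. The median of the 10 was -0.15 in TAM and 0.18 in ETH, beside 0.01 and -0.00 over all genes tested. PIM1 (-0.30 ± 0.21) and OSMR (-0.18 ± 0.15) did not pass in TAM. Of the 14 response genes, 2 rose and 3 fell in TAM, with CCND1 at 1.29 and FOS at -1.96.

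Depletion of TAZ changed less. In TAM, 2 of the 10 genes were called, beside 3.53% of all genes tested (1.79% higher and 1.74% lower). IL6ST was higher, with 38.3 and 41.66 TPM against 26.9 and 25.22 TPM (0.51 ± 0.10, adjusted p = 1.61e-05), and SOCS2 was lower, with 4.78 and 4.54 TPM against 9.02 and 12.34 TPM (-1.01 ± 0.24, adjusted p = 0.000971). With edgeR neither passed (adjusted p = 0.013 and 0.0127), and the SOCS2 call was lost without either TAZi library or the second Ctrli library (values of -1.29 to -0.81) and the IL6ST call without either TAZi library or the first Ctrli library (values of 0.48 to 0.55). SOCS3 stood at 49.99 and 51.95 TPM, above both controls, and did not pass (0.14 ± 0.09, 95% interval -0.04 to 0.33). In ETH none of the 10 was called by DESeq2 or edgeR, beside 5.53% of all genes tested, and 4 had an unadjusted p under 0.05 with each tool.

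Depletion of JUNB raised a pair of receptor chains and lowered a pair of feedback genes in TAM, so that 4 of the 10 were called, beside 6.71% of all genes tested (2.77% higher and 3.95% lower). LIFR had 6.76 and 5.01 TPM against 2.45 and 1.61 TPM (1.49 ± 0.19, adjusted p = 2.19e-13). IL6ST, its signalling partner, had 64.6 and 47.26 TPM against 26.9 and 25.22 TPM (0.90 ± 0.13, adjusted p = 6.6e-10). Both kept the call in every fit, and the JUNBi libraries lay above the controls without overlap. PIM1 fell from 6.04 and 4.79 TPM to 2.86 and 3.02 TPM (-1.18 ± 0.25, adjusted p = 7.58e-05), and SOCS2 from 9.02 and 12.34 TPM to 5.66 and 4.03 TPM (-1.29 ± 0.25, adjusted p = 1.29e-05). The PIM1 call was lost without either Ctrli library or the first JUNBi library, and the SOCS2 call without the second Ctrli or the first JUNBi library, with values of -1.34 to -1.03 for PIM1 and -1.47 to -1.08 for SOCS2. SOCS3 was at 39.45 and 35.93 TPM and did not pass (-0.35 ± 0.12, adjusted p = 0.0378). OSMR did not pass, and its 1961 and 1725 normalized counts overlapped the 1746 and 1439 of the controls (0.21 ± 0.14).

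In ETH the only call was LIFR, with 9.24 and 4.02 TPM in JUNBi against 1.5 and 1.97 TPM (1.73 ± 0.30, adjusted p = 1.3e-06), beside 2.76% of all genes tested and 1.17% called higher. It did not pass with edgeR (adjusted p = 0.0542) or without either Ctrli library (values of 1.41 to 2.00, adjusted p up to 0.0963). The JUNBi libraries in ETH differed from each other in several members, as IL6ST had 55.1 and 29.25 TPM and TYK2 15.99 and 29.38 TPM. IL6ST did not pass there (0.86 ± 0.25, adjusted p = 0.0164). Part of the LIFR count cannot be assigned by strand, since LIFR-AS1 runs opposite and shares 629 exonic bases with it, although that antisense gene had at most 0.24 TPM in any library. In the same way OSMR shares 229 exonic bases with RICTOR on the other strand, which had up to 13.52 TPM. SOCS2 shares 277 with SOCS2-AS1 (at most 2.53 TPM) and JAK1 647 with LINC01359 on its own strand (at most 0.88 TPM). The strand setting of the counting is not given in the sources used here, and the part of these overlaps was not tested.

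Of the ligands, IL6 had 63.7 and 55.8 normalized counts in JUNBi under TAM against 2.12 and 1.73 in Ctrli (adjusted p = 6.52e-05), and LIF, the ligand of LIFR, had 232.2 and 241.6 against 103.9 and 114.0 (1.12 ± 0.29, adjusted p = 0.00191). Of the 14 response genes 6 fell in JUNBi under TAM and none rose, JUNB itself among them as the target of the siRNA. The largest of the others were FOS (-1.60), TIMP1 (-1.16) and VEGFA (-0.84).

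Over the 8 knockdown comparisons in ER-Src, TYK2 and JAK2 were called in none, with TYK2 between -0.35 and -0.03 and JAK2 between -0.40 and 0.69 on the log2 scale. SOCS2 was called lower under TAM in YAPi, TAZi and JUNBi, and differed by -0.25 ± 0.23 in STAT3i. As the 3 comparisons use the same controls, whose SOCS2 levels were 9.02 and 12.34 TPM, they are not independent of each other. The same holds for IL6ST, called higher under TAM in these 3 knockdowns, with controls at 26.9 and 25.22 TPM.

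In MDA-MB-231 set 1, 5 to 7 of the 10 genes were called in each knockdown, but 24.1% to 35.5% of all genes were called too, and every knockdown library differed from the controls in depth and in library type. In YAPi 5 were called (24.1% of all genes), in TAZi 6 (32.3%), in YAPi_TAZi 7 (35.5%, from a fit with a local dispersion trend) and in TEADi 7 (28.1%). IL6ST, LIFR and JAK1 were called higher and OSMR and PIM1 lower in all 4. JAK1 had 1423 to 1691 normalized counts in the knockdowns against 489 to 569 in the controls, with log2 fold changes of 1.40 to 1.67. IL6ST ranged from 0.96 to 1.46 and LIFR from 0.83 to 1.39. OSMR ranged from -1.48 to -0.71, and PIM1, with 15 to 39 expected counts in the knockdown libraries against 708 and 771 in the controls, from -2.55 to -1.45. TPM is not used for comparisons in set 1, because in the knockdowns long genes stood well above the first replicate in the second (IL6ST 56.6 and 146.7 TPM in YAPi, where the normalized counts were 4057 and 4628). Leaving out 1 control library ended the OSMR calls in YAPi and TEADi, the LIFR call in TAZi (either control) and in YAPi_TAZi (the second), and the PIM1 calls in YAPi_TAZi (either) and TEADi (the second).

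Single calls of set 1 were IL6R, higher in TEADi (2.54 ± 0.49, adjusted p = 1.5e-06, with 129.5 and 76.9 normalized counts against 17.2 and 17.9), SOCS3, lower in TAZi (-0.99 ± 0.27), TYK2, lower in YAPi_TAZi (-0.39 ± 0.13, adjusted p = 0.00898), and SOCS2, lower in YAPi_TAZi and TEADi. SOCS2 had 0 and 3 counts in YAPi_TAZi against 134 and 132 in the controls, a ratio of 0.0967 with a 95% exact interval of 0.0198 to 0.286 that covers counting error only. Each of these 5 calls was lost without at least 1 library: the first control for IL6R, either control or the second knockdown library for SOCS3 and TYK2, and any of the 4 for SOCS2.

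When each knockdown was compared with the 3 others of its set instead, which share depth and library type, none of the 10 genes was called in any of the 4, and 1 (YAPi), 2 (TAZi), 0 (YAPi_TAZi) and 2 (TEADi) had an unadjusted p under 0.05. DESeq2 assigned no adjusted p there to 5 of the 10 in YAPi, 3 in TAZi, 2 in YAPi_TAZi and 1 in TEADi, so these could not be called. JAK1 then ranged from -0.21 to 0.14 and LIFR from -0.50 to 0.22. The lowest adjusted p of any member was that of IL6R in TEADi (1.44 ± 0.45, adjusted p = 0.0437), followed by IL6ST in YAPi (0.38 ± 0.13, adjusted p = 0.0955). That reference is itself depleted of related factors, so a change common to the 4 knockdowns would not show. Against Ctrli, the wider list moved alike in several knockdowns. The inhibitors SOCS4, SOCS5 and SOCS6 were called higher and PIAS3 lower in all 4. The ligand LIF was called lower in all 4 (-2.12 to -0.90). In these fits 24.1% to 35.5% of all genes were called, and such shared calls cannot be told apart from the difference in depth and library type.

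**Figure D4:**
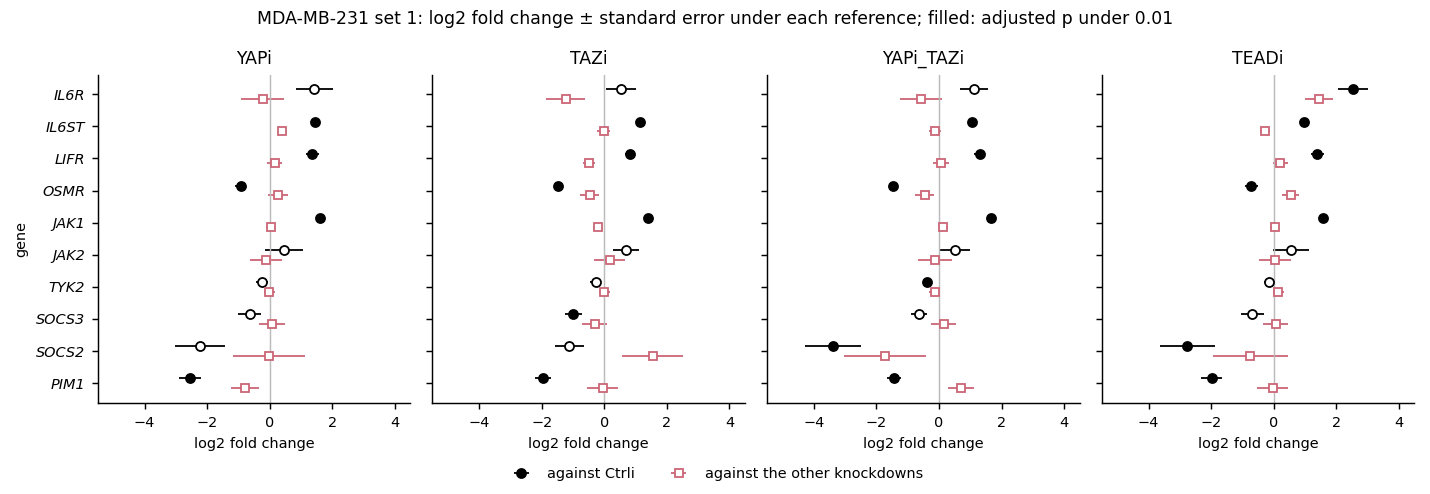
log2 fold change with its standard error of each gene in the 4 knockdowns of MDA-MB-231 set 1, against the 2 Ctrli libraries (black circles) and against the 6 libraries of the other knockdowns with the replicate number as a term (red squares); filled symbols passed an adjusted p of 0.01. The calls for IL6ST, LIFR, JAK1, OSMR and PIM1 against Ctrli have no counterpart against the other knockdowns.

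In set 2, where controls and knockdowns are of one library type, none of the 10 genes was called in JUNBi or STAT3i by DESeq2 or edgeR, and with DESeq2 none had an unadjusted p under 0.05 (edgeR gave 0 in JUNBi and 1 in STAT3i). The background was 3.99% of genes called in JUNBi and 0.237% in STAT3i. DESeq2 assigned an adjusted p to 6 of the 10 genes in JUNBi and to 3 in STAT3i, since the others lay under its filter on mean counts. SOCS3 had 54.9 and 90.7 normalized counts in STAT3i against 131.7 and 84.6 in Ctrli, which overlap (-0.57 ± 0.48, unadjusted p = 0.237, 95% interval -1.52 to 0.38). OSMR (0.10 ± 0.32) and PIM1 (0.34 ± 0.36) had 95% intervals of -0.53 to 0.73 and -0.35 to 1.04. The values of SOCS3, PIM1 and OSMR in STAT3i ER-Src cells under TAM lie outside these intervals, but the lines, treatments and library types differ and the difference itself was not tested. In JUNBi, LIFR had 49.2 and 51.4 normalized counts against 50.2 and 54.9 (-0.06 ± 0.58, 95% interval -1.21 to 1.08). IL6R had 0 counts in both Ctrli libraries and 4 to 12 in the knockdowns, too few for a fold change.

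Within the 10 ER-Src groups, SOCS3 had its highest mean level in TAZi under TAM (50.97 TPM) and its lowest in STAT3i under ETH (0.495 TPM), PIM1 its lowest in untreated ER-Src controls (1.79 TPM) and OSMR its lowest in YAPi under ETH (5.29 TPM). When the means of all 18 groups were put in order, as a description that mixes library types, 9 of the 17 neighbouring pairs overlapped for SOCS3, 11 for PIM1 and IL6R, and 13 to 15 for the other 7, so that for these genes most neighbours in the order do not differ beyond the spread of 2 libraries. Among 6390 protein-coding genes with a mean of at least 5 TPM in ER-Src, those most alike SOCS3 over the 10 ER-Src group means of log2(TPM + 1) were SERPINB4 (r = 0.991), SERPINB3 (0.989) and NPC1 (0.984). For OSMR they were SAA2 (0.978), WWC1 (0.977) and CCDC71L (0.968), for PIM1 CTSL (0.973), FAM83A (0.963) and CLEC2B (0.949), for IL6R SEC31A (0.963), TGFBR2 (0.939) and MFSD14B (0.932), and for IL6ST ADAM17 (0.969), STOM (0.962) and B2M (0.939). These correlations rest on 10 group means of 2 libraries each that share treatment and depth, were picked as the highest of many, and are given as a description.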

How the data were processed

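RNA-seq was analysed in 36 libraries of 18 groups. Per the submitters' processing notes and the study's methods, reads were aligned to hg38 with STAR and summarised per gene with RSEM. The deposited tables give expected counts (estimated read numbers per gene), TPM and the effective length per gene, as made by the authors. Of 61471 identifiers, the 60725 Ensembl genes were used. Expected counts were rounded to whole numbers and fitted with DESeq2 1.42.0 in R 4.3.3, 1 fit for each comparison of 2 groups or each interaction, and a gene was called at a Benjamini-Hochberg adjusted p under 0.01, the threshold of the study. The fit of YAPi_TAZi in set 1 used a local dispersion trend because the parametric trend could not be fitted. Normalized counts are counts divided by DESeq2 size factors of that fit, so control values differ between fits. TPM was used for levels, for overlap between groups and for ratios of group means, and all calls rest on counts.

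Alternatives were edgeR 4.0.16 (quasi-likelihood), DESeq2 with the TMM size factors of edgeR, a mean count filter, effective length offsets and the replicate number as a block. Further ones were 1 fit over all groups, other references in set 1, and leaving out each library. With TMM size factors 50 of 50 calls were kept. All 10 members are described. Of each pathway list up to 4 called genes with the largest absolute log2 fold change are named, and for likeness the 3 genes with the highest correlation to a member. Pathway genes named in set 1 for being called in every knockdown were chosen after their values were seen. The members, lists and tests were chosen with earlier results of these data known. The fits were tested on simulated data with known changes. Promoter windows are from RefSeq (GRCh38.p14). The strand setting of the counting is not given in the sources used here. Some items are not reported here.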

Additional observations from a re-analysis of the deposited data

Results flagged for a closer look

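The effect of STAT3i differed between TAM and ETH, by the interaction term of DESeq2, in 10 genes of the members and the pathway list. These were 3 of the 10 members and 7 of the 42 pathway genes with an adjusted p. Over all genes tested the share was 1.40%, and 0.951% with a negative term. The term was -2.73 for SOCS3, -2.04 for PIM1 and -0.98 for OSMR on the log2 scale. Among the known STAT3 response genes it was -2.82 for FOS, -2.19 for JUNB, -1.91 for SBNO2, -1.80 for VEGFA, -1.28 for TIMP1, -1.23 for BCL6 and -1.14 for HIF1A. In each of the 10 the value in STAT3i relative to Ctrli was lower in TAM than in ETH. With edgeR the term passed in SOCS3, PIM1, FOS and VEGFA and in none of the other 6. The effect of YAPi differed between TAM and ETH in TIMP1 (-0.76) with DESeq2, where edgeR gave an adjusted p of 0.261. This was 1 of the 43 pathway genes with an adjusted p, beside 0.496% of all genes tested.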

How the results depend on the processing

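Each call was recomputed under the alternatives, and of 558 recomputed values of called results 418 kept the call, 131 lost it with the same sign and 9 changed sign. SOCS3, PIM1 and OSMR in STAT3i under TAM, IL6R in YAPi, and IL6ST and LIFR in JUNBi under TAM kept their calls in all of them. The number of members called moved by more than 1.5 times in YAPi under TAM (5, against 3 with edgeR, 3 with effective length offsets and 3 with the replicate block), in TAZi under TAM (2, against 0 with edgeR and 1 with the block) and in JUNBi under ETH (1, against 0 with edgeR, 2 with the block and 3 with 1 fit over all groups). With the controls of both sets, set 1 gave 2 calls in YAPi and 1 each in TAZi, YAPi_TAZi and TEADi, and against the other knockdowns with the replicate block 0 in each. The cause was not tested.

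The 9 sign changes of called values all lay in set 1. Against the other knockdowns OSMR became 0.25 in YAPi and 0.54 in TEADi, IL6ST -0.024 in TAZi, -0.13 in YAPi_TAZi and -0.27 in TEADi, LIFR -0.50 and JAK1 -0.21 in TAZi, and PIM1 0.71 in YAPi_TAZi. With the controls of both sets OSMR in TEADi became 0.091.

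With 1 library left out, the calls ranged from 3 to 3 in TAM against ETH, 1 to 3 in YAPi, 0 to 1 in TAZi, 3 to 3 in STAT3i and 2 to 4 in JUNBi under TAM. Under ETH they ranged from 1 to 3 in YAPi, 0 to 0 in TAZi and STAT3i and 0 to 2 in JUNBi. The interactions gave 0 to 0 in YAPi and TAZi, 2 to 3 in STAT3i and 0 to 2 in JUNBi. Set 1 gave 4 to 5 in YAPi, 4 to 7 in TAZi, 3 to 6 in YAPi_TAZi and 4 to 6 in TEADi, and set 2 gave 0 to 0 in both.

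Nothing in the labels ties samples of the same replicate number together, and with 2 pairs a comparison the data cannot settle it. In set 1 the number goes with the libraries of the knockdowns (length minus effective length 48.0 bases in every first and 74.6 in every second replicate) but not of the controls (75.0 in both). The correlation of their deviations from the group means was 0.156 in TAM against ETH and between -0.0584 and 0.0502 in the knockdowns under TAM, between 0.149 and 0.393 in those under ETH and between -0.0221 and 0.0070 in set 1. Over pairs of groups in the interaction fits it ran from -0.0517 to 0.545 in STAT3i and from 0.0516 to 0.457 in JUNBi. In YAPi it ran from 0.0579 to 0.339 and in TAZi from -0.175 to 0.248. With the replicate block 42 of 50 calls were kept and 1 was gained. For set 2 alone no such fit was made. No paired analysis was possible because, in that set, the controls carry other replicate numbers (3 and 4) than its knockdowns. Depth limits the low genes of set 1 and set 2, where IL6R, JAK2 and SOCS2 rest on few counts.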
